A study of Homo sapiens with 24 samples.

Results

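The guanylate-binding protein genes GBP1 to GBP7 were followed across all 8 groups of an RNA sequencing study of SH-SY5Y, an established human cell line derived from a neuroblastoma. The family was taken by gene symbol from the deposited table of read counts, which gives all 7 genes among 26485. The study concerned how copper inside neuroblastoma cells shapes their transcripts. Each group held 3 libraries, 24 in all. At 24 h there were cells given interferon gamma (IFN) together with the copper chelator Dextran-Catechin (DC+IFN), IFN together with the copper chelator TEPA (TEPA+IFN), IFN alone, DC alone, TEPA alone, and untreated cells. At 4 h there were cells given copper chloride and untreated cells. No dose is stated. Nothing states that libraries of a group came from separate cultures, so p-values measure only the spread between these libraries.

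Guanylate-binding proteins are large GTPases of the dynamin superfamily, best known as interferon-gamma-induced defence proteins that gather on bacteria and on vacuoles holding parasites. In human cells GBP1 starts a protein coat on the surface of Gram-negative bacteria, to which GBP2, GBP3 and GBP4 are added, and this coat recruits caspase-4. GBP1, GBP2 and GBP5 end in a CaaX box that receives a lipid anchor. GBP5 is also known for promoting inflammasome assembly and for inhibiting the protease furin. GBP6 and GBP7 are less well characterised in human cells. Interferon gamma acts through its receptor and the kinases JAK1 and JAK2, and raises the transcription factor IRF1, which binds ISRE elements. GAS elements are a further motif of promoters that respond to interferon gamma.

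The 7 genes lie together on chromosome 1 of GRCh38 (GENCODE 29 annotation), between bases 89006666 and 89386461, a stretch of 379.8 kb. From left to right these are GBP3 (ENSG00000117226.11, 89006666 to 89022894), GBP1 (ENSG00000117228.9, 89052319 to 89065360), GBP2 (ENSG00000162645.12, 89106132 to 89150456), GBP7 (ENSG00000213512.2, 89131751 to 89176040), GBP4 (ENSG00000162654.8, 89181148 to 89198932), GBP5 (ENSG00000154451.14, 89258950 to 89272804) and GBP6 (ENSG00000183347.14, 89364058 to 89386461). GBP6 is on the plus strand and the other 6 on the minus strand, and the span of GBP7 overlaps that of GBP2. The transcribed pseudogene GBP1P1 (ENSG00000225492.6) follows on the plus strand at 89407679 to 89426243.

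Promoter sequences of 300 bases, from 250 before to 50 after the annotated start (RefSeq, GRCh38.p14), were found for 5 of the 7 genes: GBP1, GBP3, GBP4, GBP6 and GBP7. RefSeq and GENCODE place some of these starts at different bases. The promoters of GBP1, GBP3 and GBP4 are shown because each holds the ISRE core GAAANNGAAA, read here on the opposite strand, and that of GBP7 because it holds neither this core nor the GAS motif TTCNNNGAA. Capitals mark the matches. The sequences are given on the strand of the gene, at chr1:89065159-89065458 (GBP1), chr1:89022817-89023116 (GBP3), chr1:89198893-89199192 (GBP4) and chr1:89175954-89176253 (GBP7), all minus.
GBP1: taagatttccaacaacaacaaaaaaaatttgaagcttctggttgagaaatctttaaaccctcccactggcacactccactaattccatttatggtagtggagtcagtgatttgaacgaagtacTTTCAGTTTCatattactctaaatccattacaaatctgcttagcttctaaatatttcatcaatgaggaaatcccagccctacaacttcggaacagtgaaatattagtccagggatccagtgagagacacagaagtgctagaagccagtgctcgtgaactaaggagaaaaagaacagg
GBP3: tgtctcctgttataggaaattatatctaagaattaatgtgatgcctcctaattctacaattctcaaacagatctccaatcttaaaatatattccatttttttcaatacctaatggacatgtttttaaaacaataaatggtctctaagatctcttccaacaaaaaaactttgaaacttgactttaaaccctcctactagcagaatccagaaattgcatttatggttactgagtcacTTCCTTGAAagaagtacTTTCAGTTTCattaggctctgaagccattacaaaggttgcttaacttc
GBP4: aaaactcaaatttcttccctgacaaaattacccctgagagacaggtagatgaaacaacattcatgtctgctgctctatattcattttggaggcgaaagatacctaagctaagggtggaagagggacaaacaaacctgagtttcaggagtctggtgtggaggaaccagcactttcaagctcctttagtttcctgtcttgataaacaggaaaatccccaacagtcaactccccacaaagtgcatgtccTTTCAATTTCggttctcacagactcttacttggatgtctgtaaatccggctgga
GBP7: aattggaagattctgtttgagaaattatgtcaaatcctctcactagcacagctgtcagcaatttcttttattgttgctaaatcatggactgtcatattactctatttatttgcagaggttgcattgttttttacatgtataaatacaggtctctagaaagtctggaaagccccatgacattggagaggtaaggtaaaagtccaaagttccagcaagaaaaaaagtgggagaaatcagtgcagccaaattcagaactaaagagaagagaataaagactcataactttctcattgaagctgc

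The ISRE core lay at positions -127 to -118 from the RefSeq start in GBP1, at 3 to 12 in GBP3 and at -4 to 6 in GBP4. The places in GBP1 and GBP4 depend on the annotation. For GBP1 the GENCODE start 89065360 lies inside the promoter shown and upstream of the core, which from there would be downstream, as in GBP3. For GBP4 the GENCODE start 89198932 lies downstream of the whole core, which from there would be upstream. GBP3 also held a GAS motif at -15 to -7, which does not overlap its ISRE core. The GBP6 promoter, like that of GBP7, held neither. Searched on both strands of all 35116 promoters of this length, the ISRE core was in 3.6%, the GAS motif in 7.7% and both were in 0.4%. A match describes these letters only, and the absence of one says nothing of the factor.

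Without IFN most genes of the cluster were near or below 1 CPM. Levels are given in CPM, which expresses a gene's count relative to the scaled library total, and, where genes are set against each other, as CPM per kb of the longest annotated transcript. In untreated cells at 24 h, 5 of the 7 genes averaged under 1 CPM, and the exceptions were GBP2 at 10.9 ± 1.38 CPM and GBP4 at 9.19 ± 0.301 CPM (SD, n = 3). With IFN alone 1 of the 7, GBP6, averaged under 1 CPM. Summed over the 7 genes, the level was 842 ± 231 CPM per kb in DC+IFN, 751 ± 93.9 in TEPA+IFN and 891 ± 201 in IFN, against 6.27 ± 0.191 in DC, 5.62 ± 0.268 in TEPA and 6.85 ± 0.824 in untreated cells at 24 h. It was 7.18 ± 1.18 CPM per kb in copper-treated cells and 7.33 ± 0.858 in untreated cells at 4 h. The family took 0.202% to 0.322% of all counts in the IFN libraries, against 0.00185% to 0.00234% in untreated libraries at 24 h.

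**Figure D1:**
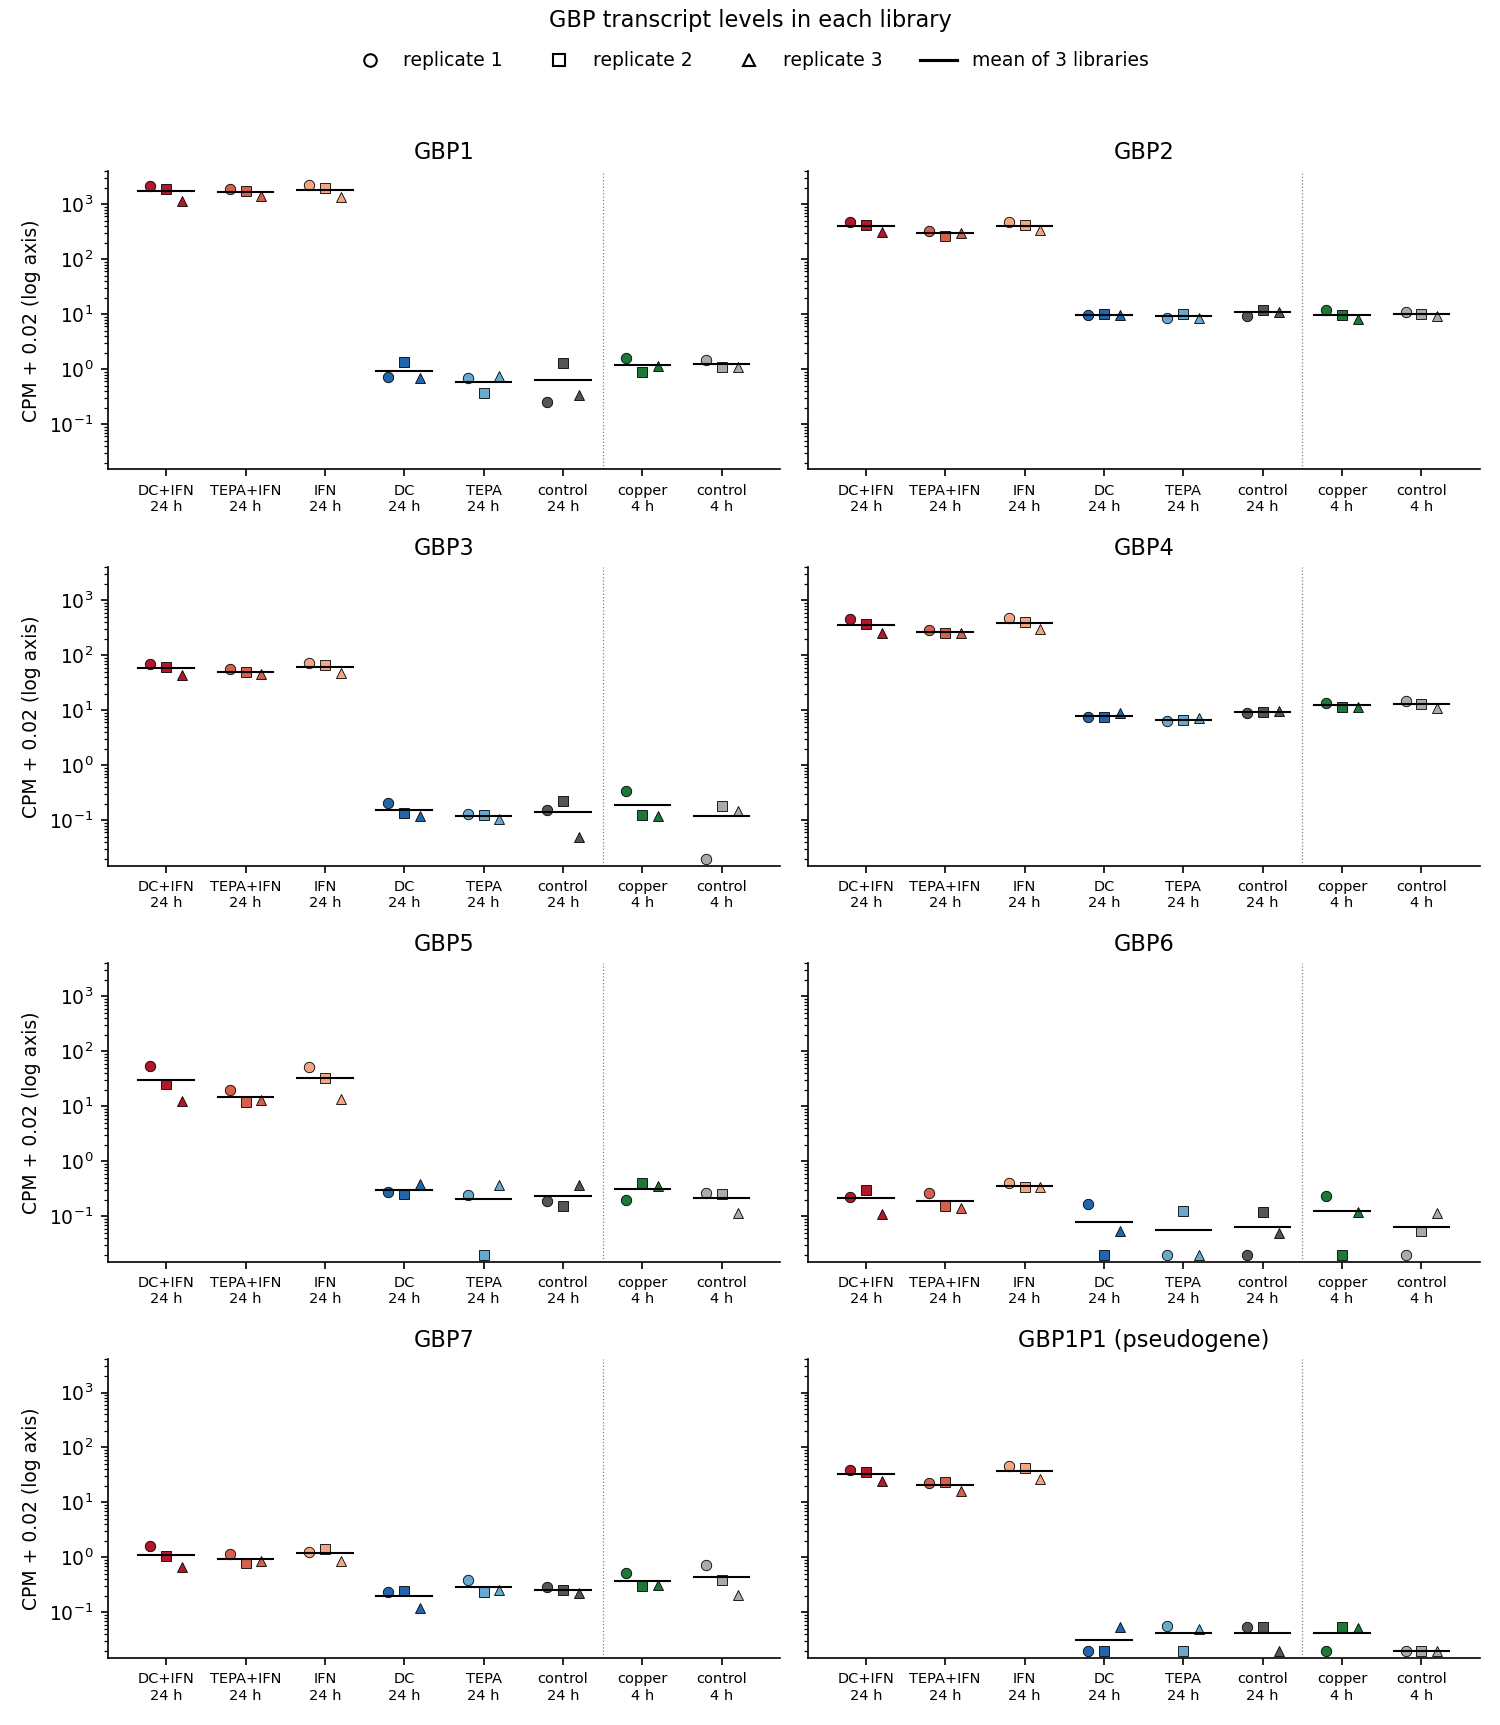
Level of each GBP gene and of the pseudogene GBP1P1 in every library, as CPM plus 0.02 on a log axis, with 1 marker per library (circle, square and triangle for replicates 1, 2 and 3) and a bar at the mean of the 3 libraries; the dotted line parts the 24 h from the 4 h groups. The 3 groups with IFN stand apart from the other 5 in GBP1 to GBP5, with GBP1 at 1165 to 2196 CPM in every IFN-treated library, while GBP7 is near 1 CPM with IFN and GBP6 stays below it.

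GBP1, the coat initiator, had 2196, 1966 and 1351 CPM with IFN alone, against 0.238, 1.28 and 0.319 CPM in untreated cells at 24 h. It had 2114, 1873 and 1165 CPM in DC+IFN, against 0.691, 1.36 and 0.672 CPM in DC. It had 1891, 1724 and 1391 CPM in TEPA+IFN, against 0.662, 0.345 and 0.725 CPM in TEPA. All 9 IFN-treated libraries lay far above every other library, and the groups did not overlap. The log2 fold change was 11.57 with IFN alone (SE 0.46, adjusted p = 1.51e-13), the 12th highest of 14654 genes tested. It was 10.85 in DC+IFN against DC (SE 0.44, adjusted p = 2.45e-13) and 11.51 in TEPA+IFN against TEPA (SE 0.46, adjusted p = 1.74e-13). The untreated side of these ratios is small, 56 counts over 3 libraries, and without untreated replicate 2, which held 38 of them, the IFN value was 12.65.

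The other coat members also rose. GBP2 had 469, 414 and 341 CPM with IFN alone, against 9.41, 12.2 and 11.0 CPM in untreated cells at 24 h, and its log2 fold change was 5.23 (SE 0.18, adjusted p = 1.86e-14). GBP4 had 478, 402 and 300.0 CPM with IFN alone, against 8.90, 9.17 and 9.50 CPM in untreated cells, and its log2 fold change was 5.42 (SE 0.21, adjusted p = 1.01e-13). GBP3 had 71.9, 66.1 and 48.0 CPM with IFN alone, against 0.136, 0.202 and 0.0290 CPM in untreated cells, and its log2 fold change was 8.99 (SE 0.42, adjusted p = 2.52e-12). In all 3 genes the groups were far apart, and the IFN library numbered 3 was the lowest of its group. With a chelator present the log2 fold changes of GBP2, GBP3 and GBP4 were 5.37, 8.75 and 5.52 in DC+IFN against DC, and 5.03, 8.90 and 5.33 in TEPA+IFN against TEPA.

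GBP5, the inflammasome-promoting member, had 52.2, 32.7 and 13.8 CPM with IFN alone, against 0.170, 0.134 and 0.348 CPM in untreated cells at 24 h. The groups did not overlap, yet the IFN libraries differed among themselves more than for any other GBP gene tested. Its log2 fold change was 7.19 (SE 0.72, adjusted p = 3.84e-07). It was 6.71 in DC+IFN against DC (SE 0.70, adjusted p = 7.85e-07), and 6.01 without DC+IFN replicate 1. In TEPA+IFN against TEPA it was 6.31 (SE 0.72, adjusted p = 2.32e-06), 5.65 without TEPA replicate 2, which held 0 counts, and 7.19 without TEPA replicate 3.

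GBP7 rose least of the 6 genes tested. It had 36, 39 and 27 counts with IFN alone, against 8, 7 and 7 in untreated cells at 24 h. In CPM these are 1.26, 1.40 and 0.858 with IFN, against 0.272, 0.235 and 0.203 in untreated cells, with no overlap. The log2 fold change was 2.29 (SE 0.43, adjusted p = 0.000696). It was 2.53 in DC+IFN against DC (SE 0.44, adjusted p = 0.000515) and 1.75 in TEPA+IFN against TEPA (SE 0.42, adjusted p = 0.00728). These counts are uncertain, since 24.4% of the 50-base windows of the GBP7 transcript also occur in other genes, mostly in GBP2 and GBP4, and the authors' counting may have divided such reads. The same holds to a lesser degree for GBP1, with 13.3% of windows shared, mostly with GBP3 and GBP1P1, while the shared part of the other 5 genes was 0% to 4.1%.

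GBP6 did not pass the filter on low counts and was not tested with the others. It had 11, 9 and 10 counts with IFN alone, against 0, 3 and 1 in untreated cells at 24 h. It had 5, 8 and 3 counts in DC+IFN, against 4, 0 and 1 in DC, and 7, 4 and 4 counts in TEPA+IFN, against 0, 4 and 0 in TEPA. The IFN and untreated libraries did not overlap, while DC+IFN and DC did, and TEPA+IFN and TEPA met at 4 counts, which in CPM is 0.1245 or more in TEPA+IFN, against 0.106 or less in TEPA. In a fit with no filter on low counts, over 20107 genes, its log2 fold change with IFN alone was 2.88 (SE 0.98, 95% interval 0.84 to 4.91, adjusted p = 0.0603), which missed the threshold.

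In all, 6 of the 6 GBP genes tested were called higher, at an adjusted p under 0.05, with IFN alone against untreated cells, where 18.8% of all 14654 genes tested were called in either direction. They were called likewise in DC+IFN against DC, where 9.82% of genes were called, and in TEPA+IFN against TEPA, where 14.2% were. The 6 are the genes that the filter on low counts kept. GBP3, with at most 9 counts in any library without IFN, passed that filter only through its libraries with IFN. GBP6, the gene left out, missed the threshold in the fit with no filter (adjusted p = 0.0603 with IFN alone). The median log2 fold change of the 6 was 6.30 with IFN alone, 6.12 in DC+IFN against DC and 5.82 in TEPA+IFN against TEPA, beside medians over all genes tested of 0.01, 0.01 and 0. In bulk RNA, a change in the number of responding cells and a change in RNA per cell cannot be told apart.

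The pseudogene GBP1P1 had 1289, 1179 and 824 counts with IFN alone, against 1, 1 and 0 in untreated cells at 24 h. Scaled for library size this is a ratio of 1760, with a 95% interval of 486 to 14500 that covers counting error only. The ratio was 3000 (537 to 118000) in DC+IFN against DC and 1020 (281 to 8410) in TEPA+IFN against TEPA. Its reads cannot be fully separated from those of its relatives, since 22.9% of its windows occur in other genes, mostly GBP1 and GBP3.

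With IFN the make-up of the family changed as well as its level. GBP2 and GBP4 formed most of the small pool in untreated cells, and GBP1 formed most of the large pool with IFN. GBP1 was 67% ± 1.85 of the summed CPM per kb in DC+IFN, 73.0% ± 3.06 in TEPA+IFN and 67.8% ± 1.32 in IFN, against 2.77% ± 2.36 in untreated cells at 24 h (SD, n = 3 each). GBP2 was 22.0%, 17.9% and 20.9% of it in the same 3 groups, against 71.3% in untreated cells, and GBP4 was 7%, 5.86% and 7.21%, against 22.1% in untreated cells. Ranked by CPM per kb among 24566 genes with a known length, GBP1 was 42nd with IFN alone, against 12795th in untreated cells. GBP2 was 233rd with IFN, against 7559th untreated, and GBP4 was 939th with IFN, against 10037th untreated. GBP3 and GBP5 stood lower at 20.2 ± 4.07 and 16.4 ± 9.54 CPM per kb with IFN alone and do not differ beyond their spread. GBP7 and GBP6 were last at 0.478 ± 0.115 and 0.115 ± 0.0125 CPM per kb.

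**Figure D2:**
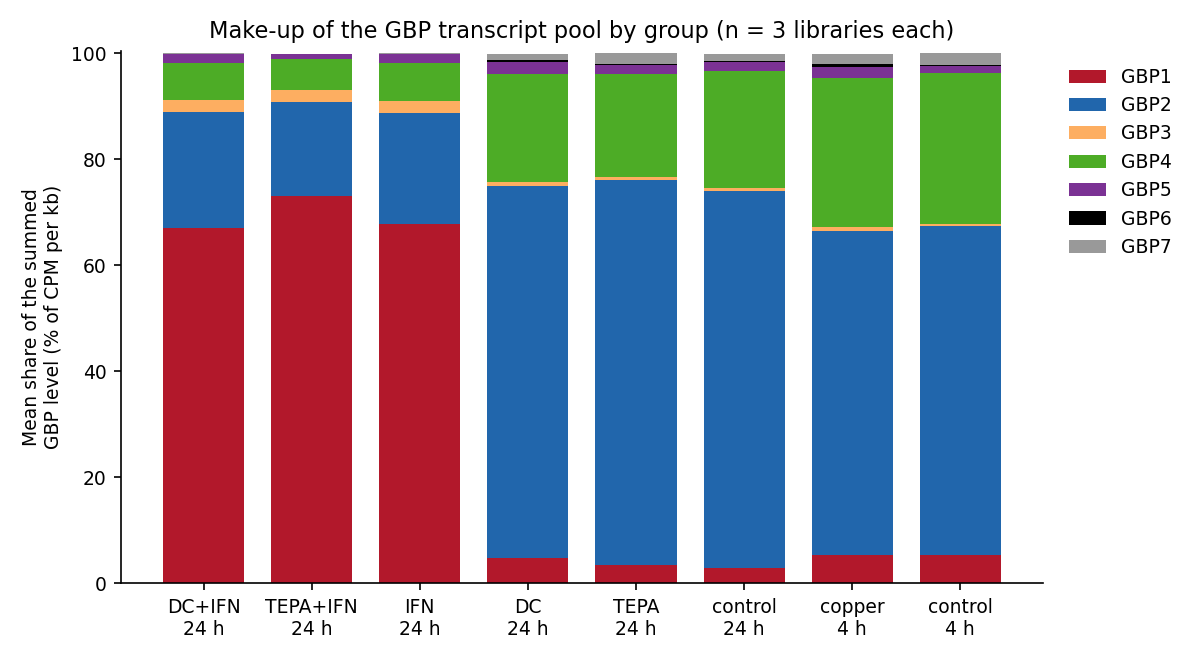
Mean share of each gene in the summed GBP level (percent of CPM per kb, 3 libraries per group) in the 8 groups. GBP1 fills 67% to 73% of the bar in the 3 groups with IFN, and GBP2 61.1% to 72.7% in the 5 groups without it.

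The share of GBP1 within the family was 69.7% to 75.7% in TEPA+IFN, against 66.4% to 69.0% in IFN, without overlap. The difference of means was 5.2 percentage points, and the exact two-sided permutation test over 3 against 3 libraries gave p = 0.1, the smallest it can give. The share of GBP4 was lower by a difference of -1.35 points, again with p = 0.1 in the exact permutation test, and that of GBP2 by -3 points, with p = 0.3. In DC+IFN against IFN the differences were -0.8 points for GBP1, 1.1 for GBP2 and -0.213 for GBP4, with p = 0.6, 0.5 and 0.3 in the same exact permutation test. These 6 tests were not adjusted, and none can pass 0.05.

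The chelators were then compared on top of IFN. With TEPA the level of all 6 genes tested lay below that with IFN alone, by a median of -0.42 on the log2 scale beside -0.02 over all genes, but 0 of 6 were called, where 1.9% of all genes were. At an unadjusted p under 0.05 there were 3 of 6 (GBP2, GBP4 and GBP5) in edgeR, beside 11.7% of all genes, and DESeq2 called 0. GBP4 had 290, 260 and 255 CPM in TEPA+IFN, against 478, 402 and 300.0 CPM in IFN, so that every TEPA+IFN library was below every IFN library. Its log2 fold change was -0.55 (SE 0.17, 95% interval -0.91 to -0.20, adjusted p = 0.116). GBP2 had 326, 262 and 301 CPM in TEPA+IFN, against 469, 414 and 341 CPM in IFN, again without overlap. Its log2 fold change was -0.46 (SE 0.15, 95% interval -0.77 to -0.15, adjusted p = 0.141). Such separation, all 3 libraries lower without overlap, was seen in 2 of the 6 GBP genes and in 12.1% of all genes tested. When a trend with GC content was removed per library, GBP2 and GBP4 were called at adjusted p = 0.0232 and 0.0203, with log2 fold changes of -0.46 and -0.57. Calls over all genes in this comparison ran from 26 to 2836 over 9 alternatives, beside 279 as reported. The share of all genes called under each alternative is not given here. GBP4 alone was called when IFN replicate 3 was left out (log2 fold change -0.71, adjusted p = 0.0376). With a block for the replicate number GBP2 and GBP4 were called (adjusted p = 0.0313 and 0.029), though not every same-numbered pair of libraries correlated above 0.1.

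GBP5 had the largest difference and the widest error. It had 19.6, 11.8 and 13.2 CPM in TEPA+IFN, against 52.2, 32.7 and 13.8 CPM in IFN. The IFN library with the lowest value lay among the TEPA+IFN libraries, so the groups overlapped. The log2 fold change was -1.14 (SE 0.51, 95% interval -2.21 to -0.08, adjusted p = 0.37). For GBP7, GBP3 and GBP1 it was -0.37, -0.31 and -0.14, with 95% intervals of -1.16 to 0.42, -0.85 to 0.23 and -0.71 to 0.43. The pseudogene GBP1P1 had 22.3, 23.5 and 16.0 CPM in TEPA+IFN, against 45.1, 42.4 and 26.2 CPM in IFN, without overlap, and its log2 fold change was -0.88 (SE 0.27, adjusted p = 0.121). It was called by DESeq2, at adjusted p = 0.0416, and with the GC trend removed, at 0.00985.

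With DC on top of IFN no GBP gene was called. In DC+IFN against IFN all 6 log2 fold changes lay between -0.12 and -0.01, and every group pair overlapped. The interval was narrowest for GBP2 (-0.32 to 0.30) and widest for GBP5 (-1.17 to 0.93). Of the 6 genes 0 were called, 0 had an unadjusted p under 0.05 and DESeq2 called 0, where 0.0205% of all genes were called and 2.29% had an unadjusted p under 0.05. TEPA+IFN was also set against DC+IFN, with no statement on dose possible. GBP2 had 326, 262 and 301 CPM in TEPA+IFN, against 485, 412 and 317 CPM in DC+IFN, with overlap, and its log2 fold change was -0.45 (SE 0.15, 95% interval -0.76 to -0.14, adjusted p = 0.136). GBP4 and GBP5 had -0.43 (adjusted p = 0.244) and -1.02 (adjusted p = 0.406), and the other 3 lay between -0.26 and -0.04. Here 0 of 6 were called in edgeR and by DESeq2, 2 of 6 (GBP2 and GBP4) had an unadjusted p under 0.05, beside 13.3% of all genes, and 2.72% of all genes were called. GBP2 was called with the GC trend removed (adjusted p = 0.0411), and both GBP2 and GBP4 without DC+IFN replicate 3 (adjusted p = 0.0371 and 0.0288). Calls over all genes in TEPA+IFN against DC+IFN ran from 57 to 3139 over 9 alternatives that left out no single library, beside 398 as reported. TEPA+IFN against IFN and DC+IFN against IFN share the IFN libraries.

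**Figure D3:**
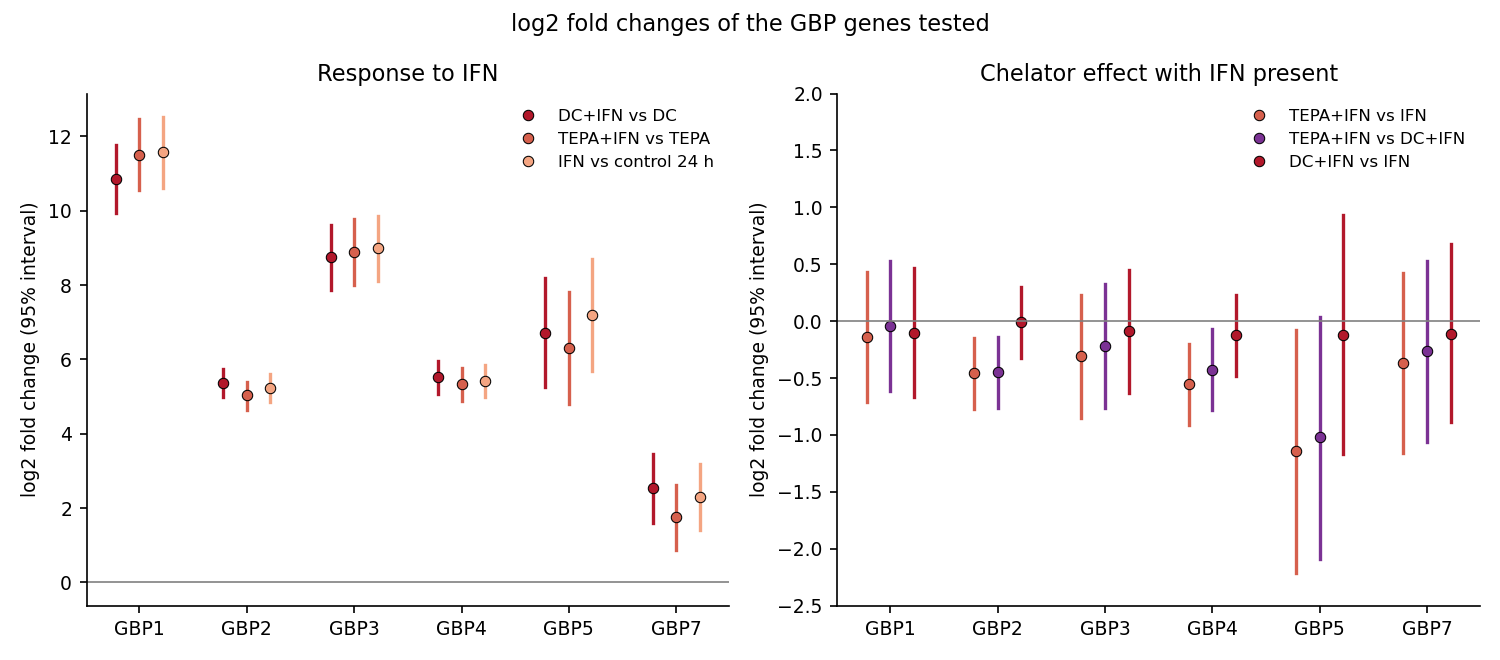
log2 fold changes with 95% intervals of the 6 GBP genes tested, for the response to IFN (left, DC+IFN against DC, TEPA+IFN against TEPA, and IFN against untreated cells at 24 h) and for the chelators with IFN present (right, TEPA+IFN against IFN, TEPA+IFN against DC+IFN, and DC+IFN against IFN). The left panel runs from 1.75 for GBP7 to 11.57 for GBP1 and all intervals lie above 0; on the right all points lie below 0, and the intervals of GBP2, GBP4 and GBP5 for TEPA+IFN against IFN end below 0 without an adjusted p under 0.05.

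Whether the size of the IFN response itself differed with a chelator was tested as an interaction. For DC the interaction ranged from -0.72 (GBP1, SE 0.59) to 0.24 (GBP7, SE 0.62) on the log2 scale, and for TEPA from -0.88 (GBP5, SE 1.06) to -0.06 (GBP1, SE 0.64). In edgeR 0 of 6 GBP genes were called in either, 0 had an unadjusted p under 0.05, and DESeq2 called 0. Of all genes 0% were called in either by edgeR, with 142 at an unadjusted p under 0.05 for DC and 205 for TEPA, and DESeq2 called 2 and 0. The intervals are wide, from -2.53 to 1.59 over the 6 genes for DC and from -3.09 to 1.67 for TEPA.

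In the absence of IFN, no treatment moved a GBP gene past the threshold. GBP4, which was above 1 CPM without IFN, had 6.40, 6.55 and 7.08 CPM in TEPA, against 8.90, 9.17 and 9.50 CPM in untreated cells at 24 h. It had 7.38, 7.38 and 8.81 CPM in DC, so that all libraries of either chelator lay below all untreated ones, which are the same 3 libraries in both comparisons. Of all genes tested, 10.2% lay lower without overlap in TEPA and 2.76% in DC. Its log2 fold change was -0.46 with TEPA (SE 0.19, 95% interval -0.85 to -0.07, adjusted p = 0.376) and -0.23 with DC (SE 0.19, 95% interval -0.62 to 0.17, adjusted p = 1). GBP2 had 8.53, 10.2 and 8.56 CPM in TEPA and 9.53, 10 and 9.82 CPM in DC, against 9.41, 12.2 and 11.0 CPM in untreated cells, with overlap in both. With TEPA 0 of 6 genes were called and 1 (GBP4) had an unadjusted p under 0.05, where 1.06% of all genes were called and 9.73% had such a p. With DC 0 of 6 were called and 0 had an unadjusted p under 0.05, where 0.0136% of all genes were called and 0.921% had such a p. DESeq2 called 0 in both.

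After 4 h of copper chloride no GBP gene was called. GBP2 had 11.7, 9.50 and 8.07 CPM in copper-treated cells, against 10.9, 10 and 9.27 CPM in untreated cells at 4 h. GBP4 had 13.7, 11.6 and 11.6 CPM in copper-treated cells, against 14.8, 12.8 and 10.8 CPM in untreated cells. The groups overlapped for all 6 genes tested, with log2 fold changes from -0.20 to 0.70 and 95% intervals within -1.21 to 2.51; 0 of 6 were called, 0 had an unadjusted p under 0.05 and DESeq2 called 0, where 5.85% of all genes were called and 16.2% had such a p. The summed level of the copper and stress genes MT1X, MT2A and HMOX1 was 60.1 to 161 CPM in copper-treated cells, against 1.27 to 4.67 CPM in untreated cells at 4 h.

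Between the untreated groups, GBP4 was at 8.90, 9.17 and 9.50 CPM at 24 h, against 14.8, 12.8 and 10.8 CPM at 4 h, without overlap, as 7.76% of all genes tested were lower. Its log2 fold change was -0.48 (SE 0.18, adjusted p = 0.0959), and -0.65 with the GC trend removed, when it was called (adjusted p = 0.0212). Calls over all genes between the untreated groups ran from 1 to 3921 over 7 alternatives that left out no single library, beside 1420 as reported. GBP1 had 0.238, 1.28 and 0.319 CPM at 24 h, against 1.48, 1.06 and 1.09 CPM at 4 h, with overlap through 24 h replicate 2. Its log2 fold change was -0.99 (SE 0.51, adjusted p = 0.179), and -2.10 without that library (adjusted p = 0.026). In this comparison 0 of 6 were called by edgeR and by DESeq2, 1 (GBP4) had an unadjusted p under 0.05, beside 33.1% of all genes, and 9.69% of all genes were called.

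Among the IFN-treated libraries the 6 genes shared the order of libraries 1 and 3, but not every step. From library 2 to library 3 of TEPA+IFN, GBP1 went from 1724 to 1391 CPM and GBP2 from 262 to 301 CPM. In each of the 3 groups with IFN, the library numbered 1 was above the library numbered 3 for all 6 genes. The same held for 14.3% of all genes tested and for 42.8% of the genes called higher with IFN alone. The ratio of library 1 to library 3 for GBP5 was 4.29 in DC+IFN, 1.48 in TEPA+IFN and 3.78 in IFN, and for GBP1 it was 1.81, 1.36 and 1.63 in the same groups. The SD of log2 levels within the IFN-treated groups was 0.85 for GBP5, 29th highest of 12719 genes, and 0.24 to 0.44 for the other 5, beside a median over genes of 0.13. IRF1, the ISRE-binding factor, was lowest in library 3 of each group, with 314, 280 and 234 CPM in DC+IFN, 376, 403 and 277 CPM in TEPA+IFN and 426, 402 and 215 CPM in IFN. Library totals in these 9 libraries ran from 24569980 to 32622130 counts, highest in the library numbered 3 of each group. A GC index, the median log2 deviation from the mean of all libraries in GC-rich genes minus that in GC-poor genes, was -0.20, -0.17 and 0.38 in DC+IFN, 0.27, 0.89 and 0.15 in TEPA+IFN and 0.60, 0.90 and -0.12 in IFN. Their part in the pattern was not tested.

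**Figure D4:**
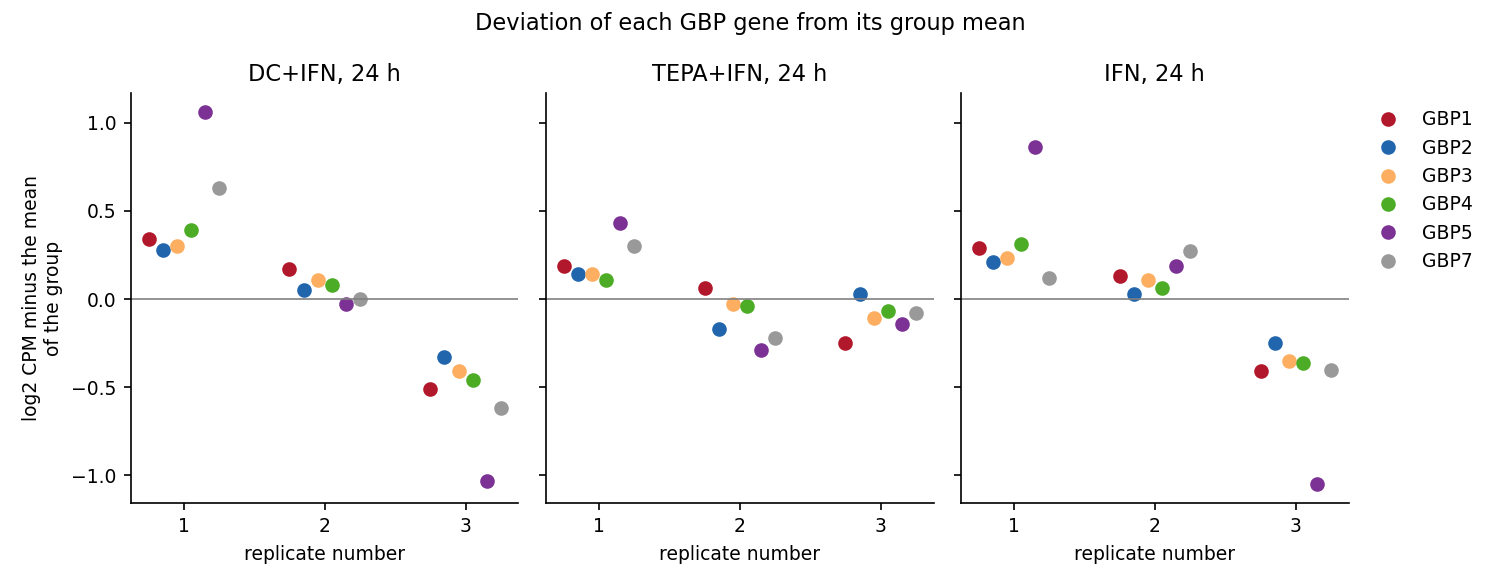
Deviation of each tested GBP gene from the mean of its group (log2 CPM, y axis) in the 3 libraries of each group with IFN, by replicate number (x axis). Points of 1 library lie on the same side of 0 in replicates 1 and 3 of DC+IFN and IFN, GBP5 has the widest spread, and the TEPA+IFN libraries lie closer together; replicate numbers have no order.

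Genes that act with the GBP family were described from 5 lists of related genes. Of 18 tested genes of the interferon gamma receptor, the JAK-STAT pathway and the IRF factors, 12 rose with IFN alone and 0 fell, with a median log2 fold change of 2.10 (2.10 too with CIITA at its bound). NLRC5, an activator of MHC class I genes, had 221 ± 64.3 CPM with IFN, against 0.313 ± 0.134 CPM untreated, and its log2 fold change was 9.42 (SE 0.35, adjusted p = 6.63e-14). CIITA, its counterpart for MHC class II, had 423 counts over 3 libraries with IFN, against 0 untreated, at least 150-fold higher when 3 counts over the untreated group are taken as the floor. IRF1 and the feedback inhibitor SOCS1 had log2 fold changes of 7.32 and 6.19. The receptor genes IFNGR1 and IFNGR2 and the kinase gene JAK1 had log2 fold changes of -0.18, 0.04 and -0.04 and were not called. The same list had 12 of 18 called higher and 0 lower in DC+IFN against DC and in TEPA+IFN against TEPA.

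In a list of 5 other interferon-induced genes, with the GTPases MX1 and MX2 among them, all 3 of 3 genes tested rose with IFN. MX1, an antiviral dynamin-like GTPase, had 42.4 ± 16.9 CPM with IFN, against 0.138 ± 0.067 CPM untreated (log2 fold change 8.22, adjusted p = 7.02e-11). MX2 had 10557 counts with IFN, against 1 untreated, and RNF213 had a log2 fold change of 3.71 (adjusted p = 1.98e-12). Of the 3 atlastins, relatives in the dynamin superfamily that fuse endoplasmic reticulum membranes, 0 rose with IFN and 2 fell: ATL3 had a log2 fold change of -0.53 (adjusted p = 0.00862) and ATL1 one of -0.49 (adjusted p = 0.0402), while ATL2 was at -0.28. In DC+IFN against DC 0 of 3 were called, and in TEPA+IFN against TEPA 1 was, ATL3 at -0.53 (adjusted p = 0.00888).

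Of 12 partners of the family in inflammasomes and pathogen defence, 6 had enough counts to be tested, and with IFN alone 4 rose and 1 fell. CASP4, which encodes the caspase recruited by the GBP coat, had 12.5 ± 0.265 CPM with IFN, against 0.828 ± 0.236 CPM untreated (log2 fold change 3.9, adjusted p = 1.01e-09). CASP1, the inflammasome caspase, had 1804 counts over 3 libraries with IFN, against 0 untreated, at least 642-fold higher, and GSDMD, the pore-forming gasdermin cleaved by these caspases, had 69 counts with IFN, against 0 untreated, at least 24.5-fold higher. APOL3, which permeabilises bacteria after the GBP coat forms, had 6933 counts with IFN, against 2 untreated. LGALS3, which encodes the lectin galectin-3, fell by 0.96 on the log2 scale (adjusted p = 0.00105). With the 2 genes at 0 set at their bound, the median of the list was 4.26. The inflammasome products IL18 and IL1B and the sensor adaptor PYCARD had at most 2 counts over the 3 libraries in the IFN and untreated groups. Of the 6 enzymes that attach or process the lipid anchor of CaaX proteins, 0 were called with IFN alone (median log2 fold change -0.06), and 1, the methyltransferase gene ICMT, was lower in copper-treated cells (-0.41, adjusted p = 0.00155).

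With TEPA on top of IFN, 1 of 18 genes of the signalling list was called lower, STAT2 at -0.39 (adjusted p = 0.029). Of the 3 genes tested in the list with MX1 and MX2, 1 was called lower, MX1 at -1.26 (adjusted p = 0.0434). IRF1 averaged 352 ± 66.3 CPM in TEPA+IFN and 348 ± 116 CPM in IFN. With DC on top of IFN, 0 genes of the 5 lists were called.

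Genes next to the cluster are set beside the share of all genes tested that were called. That share was 18.8% with IFN alone, 9.82% in DC+IFN against DC and 14.2% in TEPA+IFN against TEPA. Of the 5 nearest genes of the table on either side other than GBP1P1, 10 in all, RBMXL1 was the only one called: it lies 13.7 kb from GBP3, overlaps CCBL2, and had log2 fold changes of 0.52 with IFN alone (SE 0.16, adjusted p = 0.028), 0.60 in DC+IFN against DC (adjusted p = 0.0175) and 0.48 in TEPA+IFN against TEPA (adjusted p = 0.0459). The other 9 lay between -0.47 (LRRC8C) and 0.26 (CCBL2) with IFN alone.

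**Figure D5:**
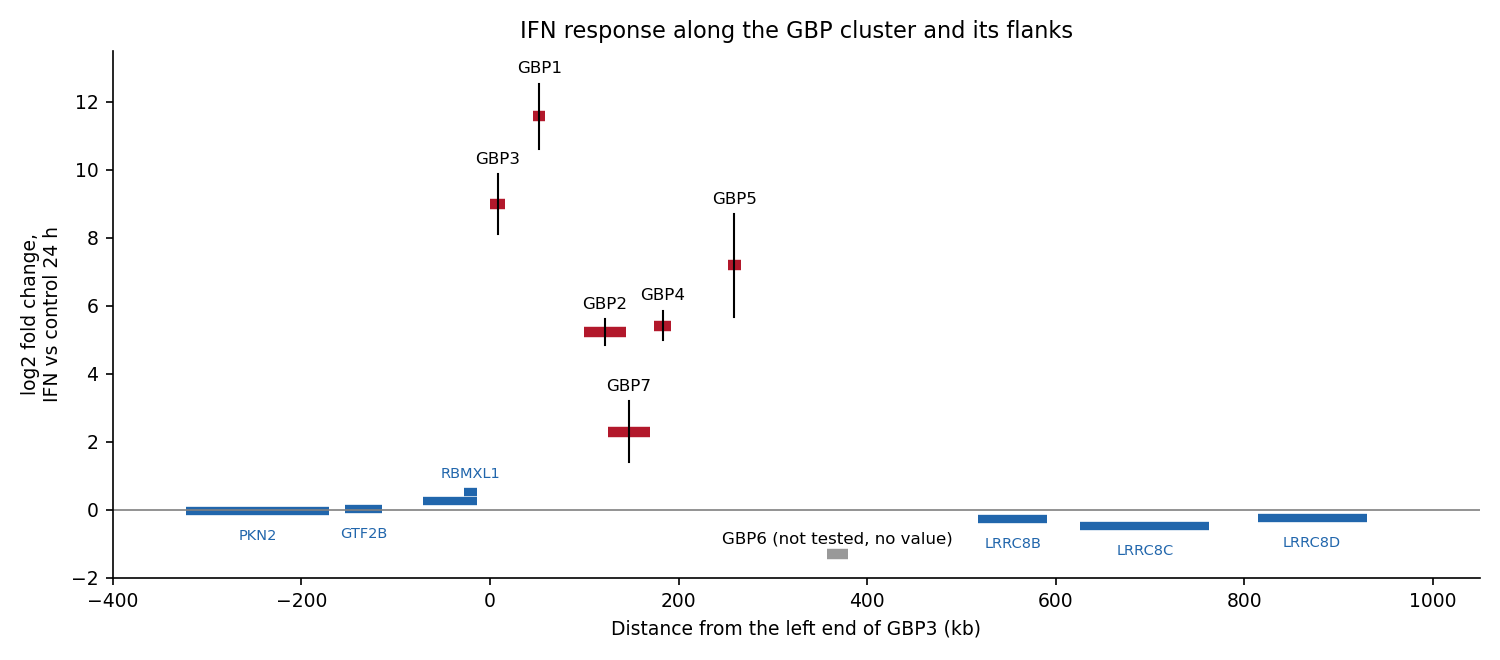
log2 fold change with IFN alone against untreated cells at 24 h (y axis) for genes along the cluster, by distance in kb from the left end of GBP3 (x axis), with GBP genes in red, their neighbours in blue and 95% intervals as black lines. The 6 GBP genes tested lie at 2.29 to 11.57 and the neighbours drawn at -0.47 to 0.52; GBP6 is drawn in grey for its position only, as it was not tested.

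The genes most like the mean GBP profile over all 24 libraries were CXCL9, IDO1, LAP3, APOL6 and DDX58, all with Pearson r = 0.997 over log2 CPM. The step between the groups with and without IFN is part of this measure. Over the 9 libraries with IFN they were MAOB and GOLM1 (r = 0.954 each), CNTN4 (0.95), IDO1 (0.948) and DOCK9 (0.946). Within those 9 libraries the r of each GBP gene with the mean of the other 5 was lowest for GBP1 (0.844) and highest for GBP3 (0.985). These are descriptions over libraries that share their groups.

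The libraries held 24569980 to 35372442 counts. Of the markers of adrenergic neuroblastoma, HAND2 was at 308.5 to 406.9 CPM and GATA3 at 135.5 to 198.7 CPM over all 24 libraries. The summed level of 7 leukocyte markers was 5.08 to 10.8 CPM with IFN, against 0.577 to 3.40 CPM without it; CD68 was the only one called higher with IFN alone (log2 fold change 3.34, adjusted p = 0.000457), while the defining PTPRC had 11 counts over 3 libraries with IFN, against 27 untreated at 24 h, and LAPTM5 had 2 with IFN, against 1 untreated. Of 5 endothelial markers the sum was 3.50 to 13.0 CPM with IFN, against 1.36 to 8.57 CPM without it, and 4 epithelial markers summed to under 0.9 CPM in all groups. Of 5 fibroblast markers PDGFRB was called higher with IFN alone (log2 fold change 1.15, adjusted p = 0.0125), and their sum was 572 to 713 CPM with IFN, against 455 to 647 CPM without it. The part of these genes in the results was not tested.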

How the data were processed

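Library preparation was for stranded mRNA, per the labels' protocols. The authors deposited whole-number read counts per gene symbol without normalization. STAR 2.5a, RSEM 1.2.31 and build hg38 are named, per the submitters' processing notes; strand setting, annotation release and filters are not given in the sources used here. The GBP genes and the gene lists were chosen with earlier results of these data known.

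Computed here in R 4.3.3: edgeR 4.0.16 was used after its filterByExpr step with a minimum count of 10 had kept 14654 of 26485 genes and 6 of 7 GBP genes. With TMM scaling, a quasi-likelihood model with 1 mean per group was fitted to all 24 libraries (16 residual degrees of freedom). Each comparison was a contrast tested with Benjamini-Hochberg adjustment over all genes tested and called under 0.05. Intervals of log2 fold changes come from this fit. The script was tested on simulated data for IFN against untreated cells. There 60.4% of 101 genes changed by 1 on the log2 scale were called, and 80.6% of 98 changed by 2. Smaller changes were not simulated. Library totals of 24569980 to 35372442 counts set the precision: 1 count is near 0.03 CPM.

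GENCODE 29 (GRCh38) gave positions and lengths for 24566 symbols (92.8%), and GC content was known for 96.8% of the genes tested. Lengths are those of the longest annotated transcript. Named beside GBP1 to GBP7 are GBP1P1, the 5 genes most like the mean GBP profile, the 5 nearest genes on either side, and up to 4 called genes of each list with the largest change; the other genes named were chosen after their values were seen. Some genes of the lists are not reported here by name.

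Replicate numbers were checked as pairs by the correlation of same-numbered libraries' deviations from their group means. Every pair exceeded 0.1 in TEPA+IFN against TEPA (0.29, 0.56 and 0.23), DC against untreated (0.15, 0.55 and 0.23), TEPA against untreated (0.36, 0.57 and 0.23) and copper against untreated (0.87, 0.35 and 0.82), and not in the other comparisons. Alternatives were DESeq2 1.42.0 or its size factors, no filter, each comparison's own libraries only, a replicate block, removal of a GC trend, and leaving out libraries.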

Additional observations from a re-analysis of the deposited data

How the results depend on the processing

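The count of GBP genes called in the 3 responses to IFN was 6 in every alternative, with each library left out in turn too. The fit with no filter also tested GBP6, and did not call it in any of the 3 responses. Of 1093 values of GBP genes under an alternative, 823 belonged to a gene not called as reported; 75 turned sign, 0 of them called in either setting, and 0 calls were lost. For TEPA+IFN against IFN, reported with 0 genes called, 2 (GBP2 and GBP4) were called with the GC trend removed and 1 (GBP4, adjusted p = 0.0244) with replicate 3 of all IFN groups left out together, an alternative chosen after seeing the data; leaving out 1 library gave 0 to 1. For TEPA+IFN against DC+IFN, reported with 0, the GC trend removed gave 1 (GBP2), the same joint omission 1 (GBP4, adjusted p = 0.0327) and leaving out 1 library 0 to 2. For the untreated groups, 24 h against 4 h, reported with 0, the GC trend removed gave 1 (GBP4) and leaving out 1 library 0 to 1. The cause was not tested. With the replicate block, 2 genes were called in TEPA+IFN against IFN (GBP2 and GBP4, adjusted p = 0.0313 and 0.029) and 1 in TEPA+IFN against DC+IFN (GBP2, 0.0292); the replicate block with the GC trend removed gave 3 (GBP2, GBP4 and GBP5, adjusted p = 0.00784, 0.00453 and 0.0182) and 1 (GBP2, 0.0156). In these 2 comparisons not every same-numbered pair exceeded 0.1 (correlations of 0.07, 0.54 and 0.56 for replicates 1, 2 and 3, and of 0.24, -0.15 and -0.15). In TEPA+IFN against IFN only replicate 1 fell short, so whether the numbers pair these libraries is open. Where every pair exceeded 0.1, the block changed no call of a GBP gene. The other comparisons kept 0 genes called. Calls over all genes moved more: 279 as reported for TEPA+IFN against IFN, 26 to 2836 under 9 alternatives; 2761 for IFN against untreated, 1448 to 8210; 1439 and 941 to 4340 for DC+IFN against DC; 2076 and 1186 to 5771 for TEPA+IFN against TEPA. GBP1P1 was called in TEPA+IFN against IFN with the block (adjusted p = 0.00213) and with block and GC removal (4.6e-05). Of the genes called in the 5 lists, GC removal lost LGALS3 in DC+IFN against DC (adjusted p = 0.0605), IFNGR2 in TEPA+IFN against DC+IFN (0.12) and SOCS3 between the untreated groups (0.898), the block lost SOCS3 (0.413), and the other scaling and DESeq2 lost none. Low counts limit GBP6 and GBP7.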
